A study of Mus musculus with 12 samples.

Results

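Runx2, Sp7, Dlx3, Dlx5 and Msx2 are 5 transcription factor genes of the osteoblast lineage, and their levels were followed in RNA sequencing counts from bone-forming cells on titanium. They were chosen by name and matched through Ensembl identifiers to GENCODE M21, and are 5 of the 52654 genes counted in every library. All 5 passed the filter on low counts and are among the 13340 genes tested. The cells were MC3T3-E1 Subclone 14, a mouse preosteoblast line from calvaria, and the osteogenic medium of every group held β-glycerophosphate at 7 mM and L-ascorbic acid at 5 µg/mL. The 4 groups were isolated cells on control titanium, isolated cells on titanium with nanotopography, and co-cultures on each of those surfaces, with 3 libraries in each group. In co-cultures, osteoclasts derived from RAW 264.7 macrophages with 50 ng/mL RANKL sat above the osteoblasts in inserts with 0.4 µm pores. Both cell types were kept apart for 5 days and together for 2, and osteoblast RNA was taken on day 7. No isolated group received RANKL or an insert, so the effects of these and of the osteoclasts cannot be told apart, and "with osteoclasts" means co-culture against isolated cells throughout. All libraries came from 1 clonal line. In bulk RNA, fewer cells of a type and less RNA per cell cannot be told apart.

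Runx2 is the runt-domain factor that commits mesenchymal cells to the osteoblast lineage, and it binds DNA with the partner subunit Cbfb. Sp7, also called osterix, is a zinc finger factor that acts downstream of Runx2 and is needed for osteoblasts to form. Dlx3, Dlx5 and Msx2 encode homeobox proteins that respond to bone morphogenetic proteins. Dlx3 and Dlx5 are known to activate Runx2 and bone matrix genes, while Msx2 can oppose Dlx5 on shared promoters.

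Depth and composition bear on every value below. Total counts ran from 5866842 to 9207831 per library. The co-cultures on nanotopography stood apart in base composition: with osteoclasts on that surface, the median log2 fold change was 1.08 over genes of under 40% GC and -1.31 over genes of more than 60% GC, against -0.27 and -0.20 on control titanium. Between the surfaces in co-culture the medians were 0.72 and -0.89. Isolated cells on nanotopography moved the other way against isolated cells on control titanium, at -0.60 and 0.27, so both nanotopography groups enter the first contrast. Mitochondrial ribosomal RNA made up 8.66 to 15.8% of counts in the co-cultures on nanotopography and 4.52 to 9.80% in the other 9 libraries. The summed level of 8 osteoblast markers was 57084 to 71037 CPM (counts scaled by the library total) in the co-cultures on nanotopography, and 92577 to 115632 CPM in the others. Col1a1 was its largest part, at a mean of 23633 CPM there and 39099 to 45093 CPM elsewhere. Col1a2, Sparc, Alpl, Bglap and Bglap2 were lowest there too. Spp1 went the other way, at 456 CPM against 131 to 334 CPM. Ibsp had 8735 CPM there, 8319 CPM in co-culture on control titanium and 10482 to 12353 CPM in isolated cells. Of 18 macrophage and osteoclast markers, 10 and 11 had a count in the isolated groups, 14 in co-culture on control titanium and 17 in co-culture on nanotopography. Their summed level was 182 to 207 CPM in the first 3 groups and 183 to 259 CPM in the last, where Ptprc had 9 to 20 counts, against 0 in isolated cells. Ctsk made up most of this sum, at a mean of 164 to 184 CPM in each group, and Mmp9 had 15.8 to 22.0 CPM. Atp6v0d2 had 0 counts in isolated cells, 0 to 5 in co-culture on control titanium and 13 to 31 in co-culture on nanotopography. The 3 adipocyte markers were at 0 counts in all 12 libraries. Summed over 4 chondrocyte markers the level was 343 to 493 CPM in co-culture on nanotopography and 875 to 1332 CPM in the other groups. Acan and Col10a1 had 1 to 3 counts per group and Comp a mean of 1.28 to 3.24 CPM. The sum was thus nearly all Col2a1, at a mean of 986 to 1315 CPM in the other groups and 426 CPM in co-culture on nanotopography. Counts on Gm26917 and Gm42418, which hold ribosomal RNA-like sequence, made up 0.350 to 0.800% there and 1.52 to 8.33% elsewhere. The part of these differences in the results was not tested. Because of the GC trend, member results are given as fitted and again after the trend of each library with GC content and transcript length was removed. That adjustment was made with 3 definitions of a gene's GC content and length, and the definition quoted first, the longest protein-coding transcript, was preferred only after results of another had been seen.

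The members differ in structure and share short coding stretches with relatives. A read lying wholly inside such a stretch could come from either gene, but whether any read did was not tested. Only coding sequence was compared. On mm10, Runx2 lies on the minus strand at chr17:44495987-44814797 with 8837 exonic bases, and Sp7 on the minus strand at chr15:102356606-102367182 with 3398. Dlx3 lies on the plus strand at chr11:95120119-95125296 with 2607 exonic bases. Dlx5 lies on the minus strand at chr6:6877805-6882085 with 2263, and Msx2 on the minus strand at chr13:53466884-53473074 with 3279. GC content of the longest protein-coding transcript was 50.3% for Runx2, 54.4% for Sp7, 56.2% for Dlx3, 54.7% for Dlx5 and 48.5% for Msx2. The longest coding stretches shared exactly, read from the GENCODE transcripts, are shown for 4 pairs of the same or a related family:
Dlx3 and Dlx5: caaacacaggtgaaaatctggtt
Dlx3 and Msx2: aaaatctggttccagaaccg
Runx2 and Runx1: tccccaccgtggtcctatgaccagtc
Msx2 and Msx1: tggagcgcaagttccgccagaa
The stretch common to Dlx3 and Dlx5 is 23 bases and crosses the junction of exons 2 and 3 in both genes. The one common to Dlx3 and Msx2 is 20 bases, that of Runx2 and Runx1 is 26 bases in exon 5 of Runx2, and that of Msx2 and Msx1 is 22 bases in exon 2 of Msx2. No stretch shared by a member and a listed relative exceeded 26 of the 801 to 1542 coding bases of the members. Among the members, only Runx2 overlaps other annotated genes. Its antisense neighbour Runx2os1 shares 519 exonic bases with it and had 1 to 18 counts per library. Counting by strand is not given in the sources used here.

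Per kilobase of exon, Sp7 had the highest level of the 5 in every group. In isolated cells on control titanium its mean was 119 ± 3.91 CPM per kb (SD, n = 3). Runx2 at 40.9 ± 4.72 and Dlx3 at 38.7 ± 1.67 CPM per kb did not differ beyond their spread. Dlx5 followed at 29.7 ± 2.59 CPM per kb, and Msx2 was far lower at 0.674 ± 0.220 CPM per kb. The order of Runx2, Dlx3 and Dlx5 here rests on the length used, which joins the exons of all transcripts. It was 8837 bases for Runx2 and 2263 for Dlx5, whose longest protein-coding transcripts have 6463 and 1423. For Dlx3 both lengths are 2607 bases. In co-culture on nanotopography the order was Sp7 at 84.9 ± 5.04, Runx2 at 38.6 ± 4.47, Dlx3 at 30.3 ± 3.01, Dlx5 at 13.6 ± 2.37 and Msx2 at 0.746 ± 0.204 CPM per kb.

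**Figure D1:**
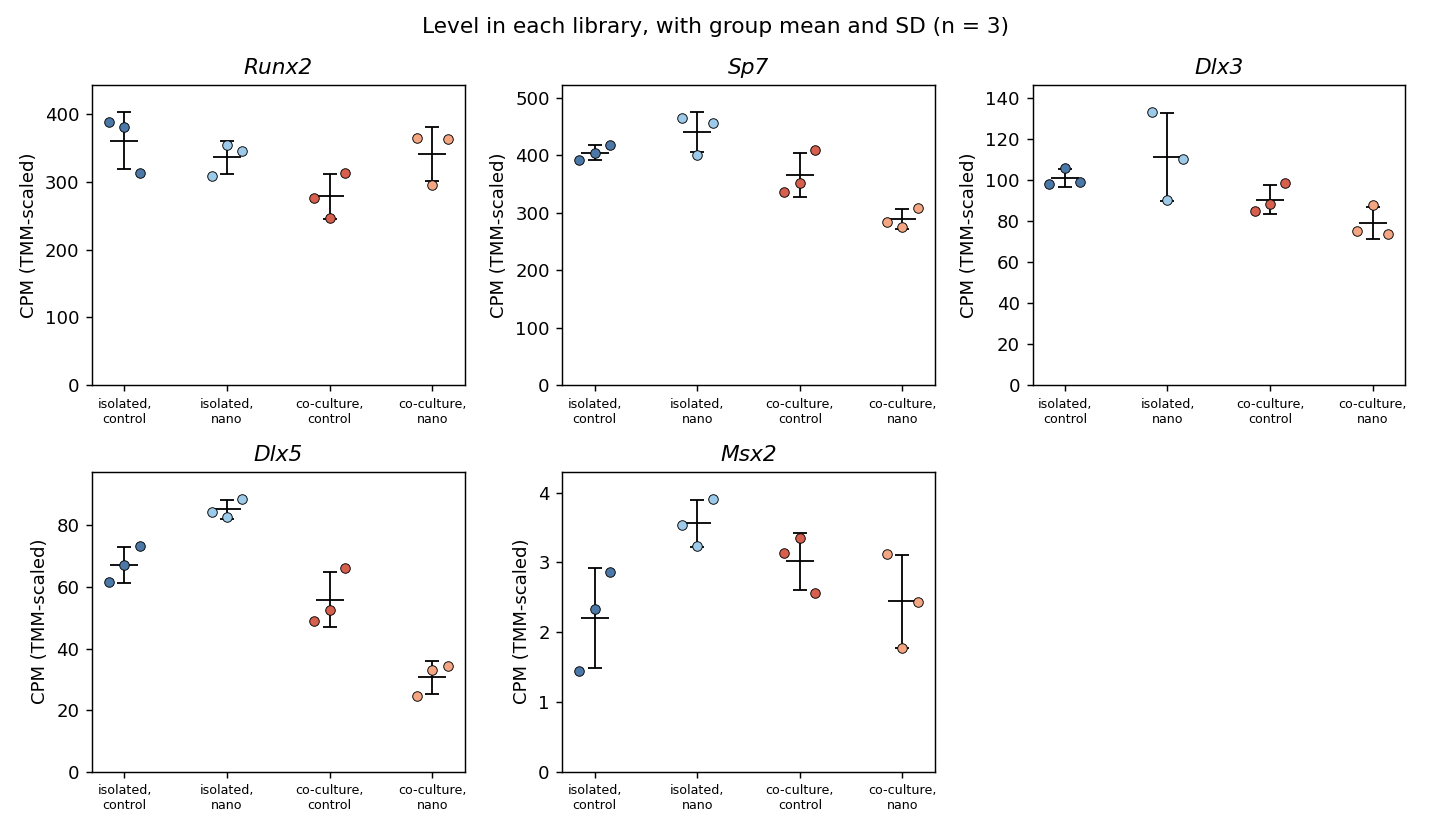
Level of each member in CPM (linear axis from 0) in the 12 libraries, with points for libraries and bars for the group mean and SD of 3 libraries. Dlx5 in co-culture on nanotopography, at 24.5 to 34.5 CPM, lies below every other library, and Runx2 there, at 295 to 364 CPM, overlaps all 3 other groups.

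Runx2 was lower with osteoclasts on control titanium and did not pass the test on nanotopography. In isolated cells it stood at 389, 381 and 313 CPM on control titanium and at 308, 355 and 345 CPM on nanotopography. In co-culture it stood at 276, 247 and 313 CPM on control titanium and at 364, 295 and 363 CPM on nanotopography. The co-cultures on control titanium were the lowest group, but one isolated and one co-cultured library met at 313 CPM. With osteoclasts on control titanium, the log2 fold change was -0.37 ± 0.12 (SE; edgeR quasi-likelihood test, adjusted p = 0.0382), a fold of 1.30. There, 19.7% of all tested genes were called at an adjusted p below 0.05, with 8.72% of all tested genes called lower, and Runx2 was the only one of the 5 members called. The call was lost when any one of 6 libraries was left out: isolated control replicates 1 and 2, isolated nanotopography replicate 3, co-culture control replicates 1 and 2, and co-culture nanotopography replicate 3. The number of all tested genes called fell from 2622 to 1483, 1436 and 1629 without isolated control replicate 1, isolated control replicate 2 and co-culture control replicate 2. Without single libraries the Runx2 values reached -0.28 with an adjusted p of 0.188 at most. After GC adjustment the log2 fold change was -0.47 (edgeR adjusted p = 0.00229), and it lay between -0.49 and -0.46, called, under all 3 definitions. With the longest protein-coding transcript, 27.5% of tested genes were called after GC adjustment and 3 of the 5 members (Runx2, Sp7 and Dlx5), all lower.

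On nanotopography, the Runx2 difference with osteoclasts was 0.02 ± 0.12 on the log2 scale (edgeR adjusted p = 0.895; 95% interval -0.23 to 0.28). GC adjustment gave 0.00, or up to 0.38 under the definition computed first, where it was called higher (edgeR adjusted p = 0.0267). Between the surfaces in co-culture, the Runx2 log2 fold change of nanotopography over control was 0.29 ± 0.12 (edgeR adjusted p = 0.0629). It was called after each GC adjustment, from 0.32 (edgeR adjusted p = 0.0377) to 0.59. The difference between the osteoclast effects on the 2 surfaces was 0.39 ± 0.17 for Runx2 (edgeR adjusted p = 0.0661). It was 0.47 after GC adjustment (edgeR adjusted p = 0.0310), with 0.72 and 0.84 under the other 2 definitions, and called higher under all 3.

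Sp7 was lower with osteoclasts on nanotopography as fitted, and this result did not survive GC adjustment. Isolated cells had 392, 403 and 418 CPM on control titanium and 464, 401 and 456 CPM on nanotopography. Co-cultures had 335, 352 and 409 CPM on control titanium and 283, 275 and 308 CPM on nanotopography. The last group lay below every other library, and the 2 groups on control titanium overlapped. On nanotopography the log2 fold change was -0.61 ± 0.10 (edgeR adjusted p = 9.11e-05), a fold of 1.53. On that surface 59.2% of tested genes were called, 30.4% as lower, beside 3 of the 5 members, all lower. After GC adjustment 38.6% of tested genes were called, and of the members Dlx5 alone. The value for Sp7 was then -0.09 (edgeR adjusted p = 0.395). With GC content averaged over all its transcripts it was 0.39 (edgeR adjusted p = 0.00246) with median transcript length and 0.46 (edgeR adjusted p = 0.000656) with the longest, called higher in both. The sign of the adjusted Sp7 difference therefore depended on how GC content was defined. Sp7 has 3 annotated transcripts, and the shortest, a non-coding one of 117 bases, has 69.2% GC against 54.4% and 55.3% in the others.

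On control titanium the Sp7 difference was -0.15 ± 0.10 (edgeR adjusted p = 0.331) as fitted and -0.25 (edgeR adjusted p = 0.0307) after GC adjustment, but -0.11 and not called under the other 2 definitions. The Sp7 difference of the surfaces in co-culture was -0.34 ± 0.10 (edgeR adjusted p = 0.0149), where 42.0% of tested genes were called, 23.3% as lower, and 2 of the 5 members (Sp7 and Dlx5), both lower. After GC adjustment 17.5% of tested genes were called and 3 members, Runx2 and Dlx3 as higher and Dlx5 as lower. Without co-culture nanotopography replicate 1 the share of all tested genes called as fitted was 24.1%, and without co-culture control replicate 2 it was 27.9%. The Sp7 difference lost the call without co-culture control replicate 3 (edgeR adjusted p = 0.0744), and was 0.08 (edgeR adjusted p = 0.547) after GC adjustment, or 0.40 and 0.45, called higher, under the other 2 definitions.

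Dlx3 followed Sp7 as fitted. Its levels were 97.9, 106 and 98.9 CPM in isolated cells on control titanium and 133, 90.0 and 110 CPM on nanotopography. Co-cultures had 84.7, 88.2 and 98.4 CPM on control titanium and 75.2, 88.0 and 73.8 CPM on nanotopography. The 2 groups on nanotopography did not overlap, although 88.0 and 90.0 CPM lay close. With osteoclasts on nanotopography the log2 fold change was -0.49 ± 0.13 (edgeR adjusted p = 0.00349), a fold of 1.40. GC adjustment turned it to 0.23 (edgeR adjusted p = 0.0723), with 0.13 to 0.23 and no call under the 3 definitions. On control titanium it was -0.16 ± 0.13 (edgeR adjusted p = 0.402), and -0.24 after GC adjustment (edgeR adjusted p = 0.0764). Between the surfaces in co-culture it was -0.19 ± 0.13 (edgeR adjusted p = 0.234) as fitted, and 0.37 (edgeR adjusted p = 0.0161) after GC adjustment.

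Dlx5 showed the largest called difference of the 5 members as fitted, and its fall with osteoclasts on nanotopography was the one call on that surface that held under all 3 GC definitions. Isolated cells had 61.5, 67.1 and 73.2 CPM on control titanium and 84.3, 82.7 and 88.6 CPM on nanotopography. Co-cultures had 49.0, 52.7 and 66.1 CPM on control titanium and 24.5, 33.0 and 34.5 CPM on nanotopography. The isolated cells on nanotopography were the highest of the 12 libraries and the co-cultures on the same surface the lowest. The mean there fell from 85.2 ± 3.09 to 30.7 ± 5.37 CPM (SD, n = 3). The log2 fold change with osteoclasts on nanotopography was -1.47 ± 0.14 (edgeR adjusted p = 3.20e-07), a fold of 2.78, and it was called without any one of the 12 libraries, from -1.54 to -1.34. After GC adjustment it was -0.85 (edgeR adjusted p = 3.63e-06), a fold of 1.80, with -0.77 and -0.63, both called lower, under the other 2 definitions.

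On control titanium, Dlx5 differed by -0.27 ± 0.13 (edgeR adjusted p = 0.173), and by -0.33 (edgeR adjusted p = 0.0180) after GC adjustment, called lower under all 3 definitions. Between the surfaces in co-culture its log2 fold change was -0.86 ± 0.14 (edgeR adjusted p = 0.000283). That became -0.40 (edgeR adjusted p = 0.0160) after GC adjustment, and -0.30 and -0.22, neither called, under the other 2 definitions. In isolated cells the surfaces did not overlap for Dlx5, but the difference of 0.34 ± 0.13 missed the threshold (edgeR adjusted p = 0.0995), and after GC adjustment it was 0.12. In isolated cells 9.71% of tested genes and 0 of the 5 members were called with edgeR. At an unadjusted p below 0.05 there were 29.6% of tested genes and 2 members, Dlx5 (0.0195) and Msx2 (0.0368). The number of all tested genes called in this comparison, 1295, rested on single libraries. It was 3 without isolated control replicate 1, isolated control replicate 2 or isolated nanotopography replicate 3, and 65 without isolated nanotopography replicate 1. It was 843 without co-culture nanotopography replicate 3, 2145 without isolated control replicate 3 and 2877 without isolated nanotopography replicate 2. DESeq2 and limma-voom called 0 members there too. After GC adjustment 4.39% of tested genes and 0 members were called with edgeR, Msx2 having an unadjusted p of 0.0301.

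Msx2 was near the limit of what these libraries measure, with 11 to 29 counts per library. Its levels were 1.44, 2.33 and 2.86 CPM in isolated cells on control titanium and 3.54, 3.24 and 3.91 CPM on nanotopography. Co-cultures had 3.14, 3.35 and 2.56 CPM on control titanium and 3.12, 1.78 and 2.43 CPM on nanotopography. On nanotopography the isolated and co-cultured groups did not overlap, with a log2 fold change of -0.54 ± 0.31 (edgeR adjusted p = 0.135; 95% interval -1.19 to 0.10), and -0.62 after GC adjustment (edgeR adjusted p = 0.112). On control titanium it was 0.47 ± 0.31 (edgeR adjusted p = 0.299), and 0.45 after GC adjustment (edgeR adjusted p = 0.290). None of the 5 comparisons was called for Msx2 as fitted or under any of the 3 GC definitions.

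**Figure D2:**
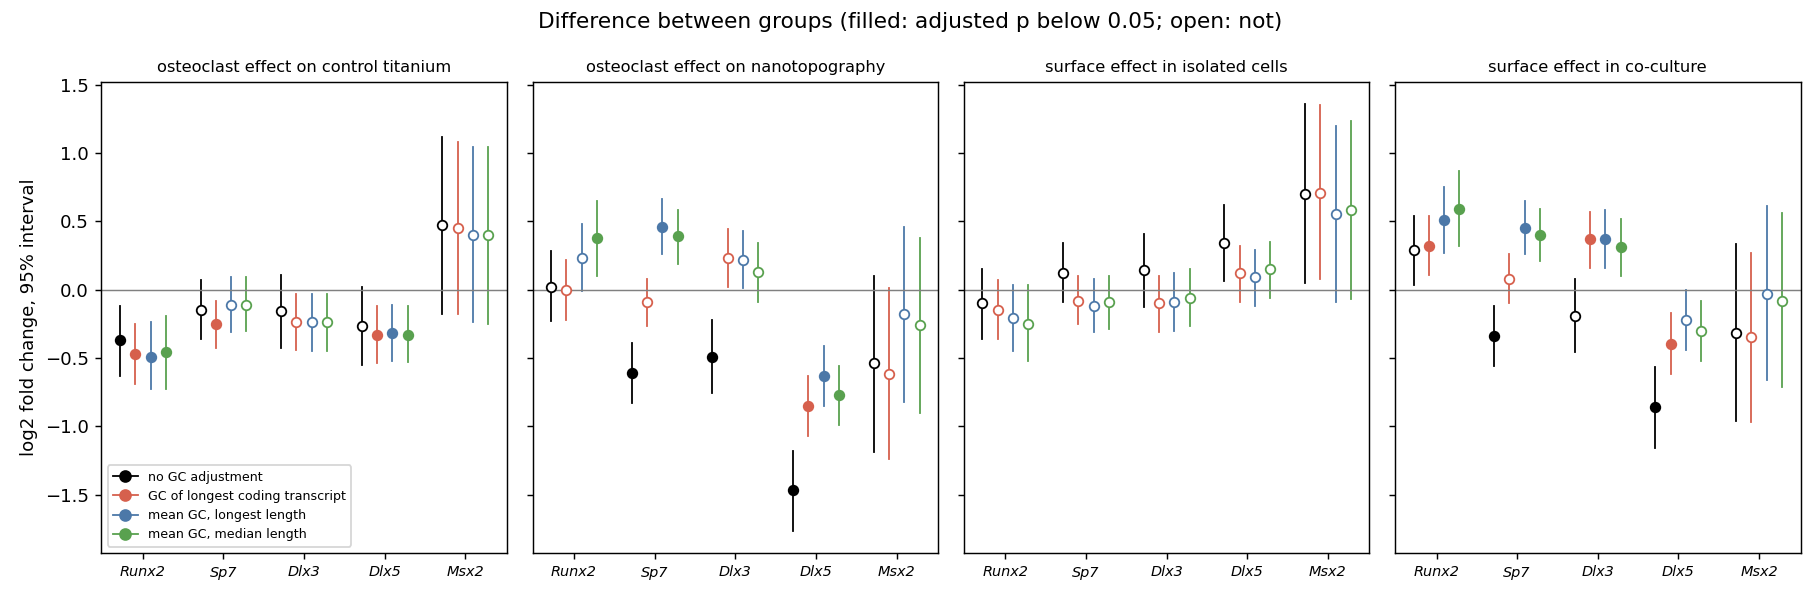
Log2 fold changes of the 5 members with 95% intervals in 4 comparisons, as fitted (black) and after GC adjustment under 3 definitions of a gene's GC content and length (colours); filled points have an adjusted p below 0.05. With osteoclasts on nanotopography the 4 values for Dlx5 run from -1.47 to -0.63, while those for Sp7 run from -0.61 to 0.46.

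Whether the osteoclast effect differed between the surfaces was tested as an interaction, in which 47.8% of tested genes were called, 25.4% as lower. As fitted, 2 of the 5 members were called, both with a more negative effect on nanotopography. The difference was -1.21 ± 0.19 for Dlx5 (edgeR adjusted p = 0.000246) and -0.46 ± 0.14 for Sp7 (edgeR adjusted p = 0.0150). After GC adjustment 19.8% of tested genes were called, and 3 members: Dlx5 as lower, Runx2 and Dlx3 as higher. Dlx5 was at -0.51 (edgeR adjusted p = 0.0189), with -0.45, called, and -0.31, not called (edgeR adjusted p = 0.127), under the other 2 definitions. Sp7 was at 0.16 (edgeR adjusted p = 0.376) and, under the other 2 definitions, at 0.49 and 0.57. Dlx3 was at -0.33 ± 0.18 as fitted (edgeR adjusted p = 0.139) and at 0.47 (edgeR adjusted p = 0.0233) after GC adjustment, with 0.46, called, and 0.37, not called (edgeR adjusted p = 0.0679), under the other 2 definitions. Msx2 was at -1.02 ± 0.43 (edgeR adjusted p = 0.0622) and at -1.06 after GC adjustment (edgeR adjusted p = 0.0833). It was called without isolated control replicate 3 (edgeR adjusted p = 0.0366) or without co-culture nanotopography replicate 1 (edgeR adjusted p = 0.0435).

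Over the 12 libraries, the log2 levels of Sp7 and Dlx5 had a Pearson r of 0.96, Sp7 and Dlx3 one of 0.84, and Dlx3 and Dlx5 one of 0.80. Runx2 had an r of -0.34 to 0.12 with the other members. These libraries share groups and the GC trend, so the values describe the libraries only. By the same measure, among 9372 other protein-coding genes of at least 5 CPM, Dlx5 was most like Obsl1 (r = 0.994), Zfp423 (0.991) and Fasn (0.991), of 56.7 to 62.5% GC. Sp7 was most like Gipc1 (0.987), Arid5a (0.984) and Ncdn (0.983), and Dlx3 like Naa40 (0.944), Snx19 (0.935) and Otud5 (0.930). Runx2 was most like Armcx3 (0.965), Sec11c (0.959) and the mitochondrial gene mt-Cytb (0.950), of 39.1 to 49.2% GC. Msx2, compared with 9373 genes, was most like Sft2d2 (0.922), Lsg1 (0.870) and Eya3 (0.854).

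The lists of related genes are read against the share of all tested genes called with osteoclasts, which was 19.7% on control titanium and 59.2% on nanotopography, or 27.5% and 38.6% after GC adjustment. For the lists, GC adjustment is by the longest protein-coding transcript unless stated. The median over all tested genes was -0.02 and 0.00. Among 12 relatives of the members, 11 were tested. With osteoclasts on control titanium 1 was called higher and 3 lower (median log2 fold change -0.22), and on nanotopography 4 higher and 4 lower (median 0.27). After GC adjustment the counts were 1 higher and 4 lower, and 4 higher and 1 lower, but the 4 higher were not all the same genes. On nanotopography Runx3 and Dlx1 were called higher under all 3 GC definitions and Prrx1 under none. Prrx2, a homeobox gene of 63.6% GC, had 19.9 to 23.6 CPM in isolated cells and 6.57 to 8.59 CPM in co-culture on control titanium. It fell by 1.50 ± 0.22 on the log2 scale there (edgeR adjusted p = 0.000198) and by 2.22 ± 0.24 on nanotopography (edgeR adjusted p = 9.90e-07), or by 1.25 and 0.67 after GC adjustment, called in both. Runx1, the runt-domain factor of blood cell formation, was higher on nanotopography by 0.93 ± 0.15 (edgeR adjusted p = 4.95e-05), and by 0.54 after GC adjustment (edgeR adjusted p = 0.00250).

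Dlx6 lies beside Dlx5, on the plus strand at chr6:6863334-6868568, and the 2 genes are known to share regulatory elements. It had 14.7, 11.7 and 12.5 CPM in isolated cells on control titanium and 7.25, 12.1 and 7.32 CPM on nanotopography. Co-cultures had 8.0, 6.71 and 7.99 CPM on control titanium and 11.8, 11.2 and 9.43 CPM on nanotopography. The groups on control titanium did not overlap, and those on nanotopography did. Dlx6 fell with osteoclasts on control titanium by 0.77 ± 0.20 on the log2 scale (edgeR adjusted p = 0.0120), and its value on nanotopography was 0.27 ± 0.20 (edgeR adjusted p = 0.257). After GC adjustment these were -0.82 (edgeR adjusted p = 0.00343) and 0.30 (edgeR adjusted p = 0.238). The value on nanotopography was called higher under the other 2 definitions, at 0.60 and 0.61. The interaction was 1.04 ± 0.29 (edgeR adjusted p = 0.00681) and 1.12 after GC adjustment (edgeR adjusted p = 0.00869), opposite in sign to that of Dlx5. It was called higher under all 3 GC definitions, from 1.12 to 1.48. The antisense gene Dlx6os1, with 5 to 33 counts per library, overlaps Dlx6 without sharing exonic bases, and Dlx6os2, with 0 to 3 counts, shares 104.

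**Figure D3:**
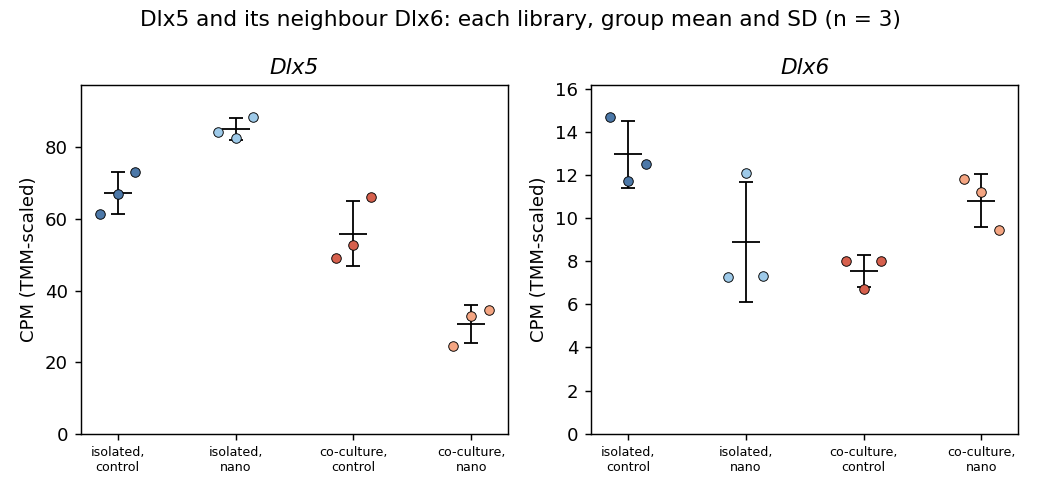
Levels of Dlx5 and Dlx6 in CPM (linear axes from 0) in the 12 libraries, with points for libraries and bars for the group mean and SD of 3 libraries. Dlx5 is lowest in co-culture on nanotopography (24.5 to 34.5 CPM), whereas Dlx6 is there at 9.43 to 11.8 CPM, above co-culture on control titanium (6.71 to 8.0 CPM).

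Of 21 partners, activators and repressors of Runx2, 19 were tested. With osteoclasts on control titanium 5 were called higher and 2 lower, and on nanotopography 2 higher and 5 lower, or 5 higher and 3 lower and 7 higher and 4 lower after GC adjustment. The 7 of 19 called on nanotopography as fitted were a smaller share than the 59.2% of all tested genes. After GC adjustment the 11 of 19 called there were a larger share than the 38.6% of all tested genes. Atf4, a stress-responsive factor that acts with Runx2 on the osteocalcin gene, rose on both surfaces. Its levels were 203 to 219 CPM in isolated cells and 274 to 354 CPM in co-culture on control titanium, and 143 to 161 and 264 to 322 CPM on nanotopography. The log2 fold changes were 0.62 ± 0.11 (edgeR adjusted p = 0.00106) and 0.92 ± 0.12 (edgeR adjusted p = 5.22e-06), and 0.55 and 1.46 after GC adjustment. Hdac5, a histone deacetylase that can repress Runx2, fell on nanotopography from 97.3 to 132 CPM in isolated cells to 29.1 to 43.3 CPM in co-culture. That change was -1.65 ± 0.16 (edgeR adjusted p = 3.12e-07), and -0.75 after GC adjustment (edgeR adjusted p = 3.01e-06).

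Of 18 matrix and mineralisation genes known as targets of these factors in osteoblasts, 17 were tested. With osteoclasts on control titanium 2 were called higher and 8 lower (median -0.35), and on nanotopography 3 higher and 10 lower (median -0.46), beside 8.72% and 30.4% of all tested genes called lower. After GC adjustment there were 2 higher and 8 lower, and 4 higher and 7 lower. Smpd3, a sphingomyelinase needed for bone mineralisation, had 1289 to 1424 CPM in isolated cells and 442 to 520 CPM in co-culture on control titanium, and 1398 to 1563 and 254 to 300 CPM on nanotopography. It fell by 1.49 ± 0.10 on control titanium (edgeR adjusted p = 6.46e-08) and by 2.38 ± 0.11 on nanotopography (edgeR adjusted p = 9.36e-11), or by 1.59 and 1.80 after GC adjustment. Mmp13, a collagenase and a known Runx2 target, rose while most called genes of this list fell. It went from 69.4 to 89.8 CPM in isolated cells to 261 to 362 CPM in co-culture on control titanium, and from 49.9 to 75.2 CPM to 515 to 693 CPM on nanotopography. Its log2 fold changes were 1.90 ± 0.16 (edgeR adjusted p = 5.67e-07) and 3.26 ± 0.17 (edgeR adjusted p = 5.99e-10), and 2.02 and 2.54 after GC adjustment. Spp1, which encodes the matrix protein osteopontin, was also higher, by 0.69 ± 0.12 and 1.77 ± 0.12, or 0.81 and 1.29 after GC adjustment.

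Of 8 factors of other mesenchymal lineages, 5 were tested and Pparg, Myod1 and Myf5 were below the count filter. With osteoclasts 3 were called lower on control titanium, and on nanotopography 1 higher and 3 lower. After GC adjustment by the longest protein-coding transcript there were 3 lower, and 0 higher and 4 lower, but not of the same genes. On both surfaces Scx was called lower as fitted and under none of the 3 GC definitions. Sox5 was called lower only after adjustment. On nanotopography Sox6 went from 0.29 ± 0.11 (edgeR adjusted p = 0.0301) to -0.21 (edgeR adjusted p = 0.0416). Over the 3 definitions Sox6 ran from -0.21 to 0.09 on that surface and Sox5 from -0.52 to 0.00. Each was called lower there under 1 definition only. Sox9, the chondrocyte lineage factor, stood at 231 to 270 CPM in isolated cells and 179 to 224 CPM in co-culture on control titanium, and at 280 to 303 and 175 to 187 CPM on nanotopography. It fell by 0.33 ± 0.10 (edgeR adjusted p = 0.0336) and by 0.70 ± 0.10 (edgeR adjusted p = 2.42e-05), and by 0.38 and 0.73 after GC adjustment.

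**Figure D4:**
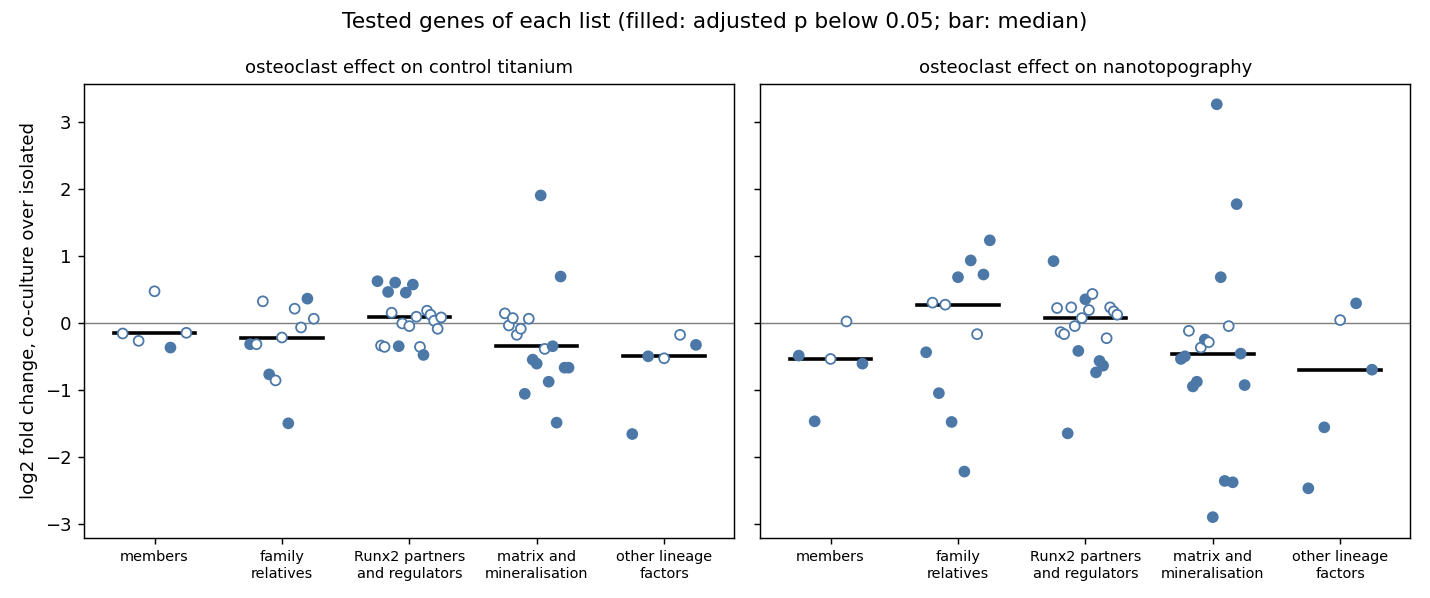
Log2 fold changes with osteoclasts, as fitted without GC adjustment, for the tested genes of each list on control titanium (left) and on nanotopography (right); filled points have an adjusted p below 0.05 and bars are list medians. The matrix and mineralisation genes run from -1.49 to 1.90 on control titanium and from -2.90 to 3.26 on nanotopography, while the members run from -0.37 to 0.47 and from -1.47 to 0.02.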

How the data were processed

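The deposited files hold raw read counts per gene as the authors' counting step left them, 1 file for each of the 12 libraries. The build mm10 and the tools STAR 2.4, HTSeq, DESeq2, cutadapt and FastQC 0.63 are named per the submitters' processing notes; their roles, annotation release and strand setting are not given in the sources used here. Of the files, 11 end inside a line, so the 52654 genes complete in every file were used (the longest holds 54275). Whether replicates were separate cultures is stated only as biological triplicates, and p-values measure the spread between these libraries.

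Genes passing edgeR's low-count filter (13340, of which 11049 are protein-coding) were scaled by TMM and tested with edgeR 4.0.16 in R 4.3.3 by quasi-likelihood on 4 group means, with 5 contrasts and Benjamini-Hochberg adjustment over all tested genes. A gene with an adjusted p below 0.05 is called. CPM used TMM-scaled totals (plain totals for marker sums), and log2 values used a prior count of 2. Levels between genes were divided by exonic length. Alternatives were other scalings and filters, DESeq2 1.42.0, limma 3.58.1, only the groups compared, leaving out single libraries and a replicate block.

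GC adjustment removed each library's loess trend (span 0.3) with GC content and length through offsets. It was planned without saying which transcript to use, and 3 definitions were run. The first used mean GC content and median length over a gene's transcripts. After its results for these genes had been seen, with an earlier result for Sp7 known, it was replaced by the longest protein-coding transcript, because a short non-coding transcript raised the mean for Sp7. The third used mean GC content with the longest length. All 3 are reported. Whether any of them also removes true changes was not tested. The methods were also run on simulated data, with outcomes not given here. For GC adjustment these held a linear trend in a single group without true changes, and only the longest protein-coding transcript was used.

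The members and gene lists were chosen with earlier results of these data known. From each list, up to 4 genes with the smallest p per contrast, and those called against the others, could be named. The values of 1 such gene are not reported here; it stays in the list counts. For each member, the 3 genes with the highest correlation were named.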

Additional observations from a re-analysis of the deposited data

Results flagged for a closer look

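For 2 members the effect of osteoclasts differed between the surfaces by the test of the difference itself. For Dlx5 the difference was -1.21 on the log2 scale (edgeR adjusted p = 0.000246), from -0.27 on control titanium and -1.47 on nanotopography. After GC adjustment it ran from -0.51 to -0.31 and was called under 2 of the 3 definitions. For Sp7 the difference was -0.46 (edgeR adjusted p = 0.0150), from -0.15 and -0.61. After GC adjustment it ran from 0.16 to 0.57, opposite in sign, and was called higher under 2 of the 3 definitions. Runx2 missed the threshold as fitted (0.39, edgeR adjusted p = 0.0661) and was called higher under all 3 definitions, from 0.47 to 0.84.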

How the results depend on the processing

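GC adjustment turned 7 of the 25 member values by the longest protein-coding transcript, a definition settled after results had been seen, and 8 by each of the other 2; the sign of Sp7 with osteoclasts on nanotopography alone turned with the definition. The cause was not tested. With osteoclasts on nanotopography, 3 members were called as fitted and 1 (Dlx5) with GC adjustment by the longest protein-coding transcript, with or without the replicate block. Sp7 was then at -0.09, against 0.39 by the first definition (mean GC, median length) and 0.46 with mean GC and the longest length; Dlx3 turned to 0.23, 0.13 and 0.22. Between the surfaces in co-culture, Sp7 turned to 0.08, 0.40 and 0.45 and Dlx3 to 0.37, 0.31 and 0.37 in the same order. In isolated cells Sp7 turned to -0.08, -0.09 and -0.12 and Dlx3 to -0.10, -0.06 and -0.09. The interaction turned to 0.16, 0.49 and 0.57 for Sp7 and to 0.47, 0.37 and 0.46 for Dlx3. Adding the replicate block to the first of these left each turned value the same to 2 decimals except Dlx3 between surfaces in co-culture, at 0.36. On control titanium, 1 member was called as fitted, 0 with the replicate block (Runx2 at -0.38, edgeR adjusted p = 0.0504), 3 with GC adjustment with or without the block, and 2 with each of the other definitions.

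Runx2 between the surfaces in co-culture passed the threshold with RLE scaling (0.31), upper-quartile scaling (0.34), DESeq2 (0.31) and protein-coding genes without mitochondrial genes (0.33). The Runx2 interaction passed it with upper-quartile scaling (0.44) and with protein-coding genes without mitochondrial genes (0.46), and the Msx2 interaction with limma-voom (-1.09). Leaving out single libraries gave 0 to 1 members called on control titanium, with 10.6 to 21.7% of tested genes called, and 2 to 4 in the interaction, with 38.8 to 50.6%, where 4 were called without isolated control replicate 3 or isolated nanotopography replicate 2. It turned Runx2 with osteoclasts on nanotopography to -0.04, -0.03 and -0.01, (range to 0.13), and Dlx3 between surfaces in isolated cells to -0.01 (range to 0.26). Replicate numbers did not pair the libraries: 6 of 18 same-number correlations of deviations exceeded 0.1 (-0.39 to 0.30), and in 14 of 36 cases a library correlated best with its own number. Without GC adjustment the replicate block changed no other call of a member. Depth limits Msx2 most, at 11 to 29 counts per library.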
